A study of Mus musculus with 14 samples.

Results

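The 10 genes described here make, conjugate, take up and control bile acids: Cyp7a1, Cyp7b1, Cyp8b1, Cyp27a1, Slc27a5, Baat, Slc10a1, Slc10a2, Nr1h4 and Nr0b2. They were chosen by name, as the rows with these symbols in the gene count tables of liver and kidney. Cyp7b1 was chosen because its liver level was lower on the high salt diet, so its liver diet values are given as a description with no test. All 10 have a row among the 19660 genes of the liver table and 8 have one among the 20203 genes of the kidney table. Cyp7a1 and Cyp8b1 have no row in the kidney count table used here. Together the tables hold 22263 genes.

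All mice were adult males, 12 weeks old, of the genotype Hap -6A, which carry a transgene of human AGT, the gene for angiotensinogen. The controls ate a normal diet (Basal in the titles) and also carry the transgene, and the treated mice were given high salt. For each diet 4 liver and 3 kidney samples were sequenced. The study asked how high salt acts on gene expression in animals with this human gene. The sources used here do not give the length of the high salt feeding, the strain or the time of day of collection. Nor do they say whether each sample came from a separate mouse, so p-values measure only the spread between these samples.

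Bile acids are made from cholesterol in hepatocytes and pass into bile. In the classic route Cyp7a1 adds the first hydroxyl group and sets the rate, and Cyp8b1 then directs the product to cholic acid. In the alternative route Cyp27a1 oxidises the side chain and Cyp7b1 hydroxylates the resulting oxysterols. Slc27a5 and Baat join the acid to taurine, Slc10a1 takes bile acids up from blood into hepatocytes, and Slc10a2 takes them up from the lumen of ileum, bile duct and kidney tubule. Nr1h4 encodes FXR, the nuclear receptor that bile acids activate, and Nr0b2 encodes SHP, a repressor that FXR induces and that lowers Cyp7a1 and Cyp8b1 transcription.

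Promoter sequences from RefSeq (GRCm38.p6) matched 6 of the 10 symbols, and 3 are printed to show the letters upstream of the repressor, a synthesis enzyme and an uptake carrier. Each run is the 250 bases before the RefSeq start, 5′ to 3′ on the gene's strand, and capitals mark a match to a motif known for liver regulators.
Nr0b2: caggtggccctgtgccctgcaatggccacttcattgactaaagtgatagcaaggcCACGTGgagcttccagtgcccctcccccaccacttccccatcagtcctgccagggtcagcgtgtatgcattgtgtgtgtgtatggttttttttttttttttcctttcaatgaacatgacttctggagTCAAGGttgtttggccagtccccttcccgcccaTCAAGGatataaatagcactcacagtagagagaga
Cyp8b1: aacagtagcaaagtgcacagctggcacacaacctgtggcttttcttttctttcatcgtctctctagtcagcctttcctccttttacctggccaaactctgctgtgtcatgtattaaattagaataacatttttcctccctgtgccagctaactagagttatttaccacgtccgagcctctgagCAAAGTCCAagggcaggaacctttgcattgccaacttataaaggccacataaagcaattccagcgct
Slc10a1: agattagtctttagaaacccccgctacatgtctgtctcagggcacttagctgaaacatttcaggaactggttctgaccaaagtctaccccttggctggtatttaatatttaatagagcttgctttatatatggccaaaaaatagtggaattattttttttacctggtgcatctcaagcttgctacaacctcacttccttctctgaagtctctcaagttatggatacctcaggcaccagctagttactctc

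The Nr0b2 run (chr4:133553126-133553375, plus strand) holds the core TCAAGG, read by the receptor LRH-1 (Nr5a2), at -68 to -63 and at -35 to -30, and the E-box CACGTG at -195 to -190, counted from the start. TCAAGG stands in 12.5% of the 27025 mouse promoters of this length and CACGTG in 6.05%. The Cyp8b1 run (chr9:121916306-121916555, minus strand) holds the HNF4 site CAAAGTCCA at -67 to -59, found in 0.381% of promoters. The Slc10a1 run (chr12:80968706-80968955, minus strand) matched none of the motifs searched. Both strands were searched, also for the D-box TTANGTAA (2.11% of promoters) and for GTCANTGAC, the inner letters of the FXR inverted repeat (0.30%), neither of which matched in any of the 6 genes. No motif overlapped another where it matched. These matches are descriptions of letters and were not tested for binding.

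The liver libraries held 37267778 to 51487382 gene counts and the kidney libraries 16046094 to 22004927. Normal diet libraries are numbered by their titles, and the high salt liver columns 5 to 8, which match no title, are called HS5 to HS8. Several liver libraries stood apart. The share of mitochondrial genes was 2.30% and 2.06% in the first 2 normal diet libraries and 11.3% to 29.6% in the other 6 liver libraries. HS5 and HS6 were far closer to each other (chi-square per gene 1.59) than the 11 other same-diet liver pairs (9.83 to 62.8), and results were also computed with these libraries summed. The summed level of 10 acute phase genes was 63820 CPM in normal diet library 4 against 3428 to 6007 in the other 3 and 1979 to 2610 on high salt. The tissues carried their markers: the 4 hepatocyte markers summed to at least 45925 CPM in each liver library and at most 111 CPM in each kidney library, where the 7 proximal tubule markers summed to at least 23306 CPM. The same tubule markers reached 45.5 CPM in HS7, 0.103% of the mean kidney level, against at most 14.4 CPM in any other liver library.

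Levels were first compared between genes as CPM (counts scaled to library size) divided by the kilobases of exon in GENCODE M21. On the normal diet the bile acid genes of liver spanned from 359 ± 54.8 CPM per kilobase for the ligase Slc27a5 to 9.08 ± 4.09 for the carrier Slc10a2 (SD, n = 4). Next came Cyp7b1 at 219 ± 19.7, the hepatocyte carrier Slc10a1 at 203 ± 48.7 and the amidating enzyme Baat at 181 ± 51.6. Below them lay Cyp27a1 at 158 ± 8.48, Cyp8b1 at 114.1 ± 59.5, Nr1h4 at 45.8 ± 13.2, Cyp7a1 at 30.8 ± 22.8 and Nr0b2 at 14.5 ± 2.25. Only Slc27a5 was separated from the next gene in this order, and the ranges of all other neighbours overlapped. On the length of the longest transcript the mean of Slc10a1 was 255 CPM per kilobase and that of Cyp27a1 was 181.

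In kidney the order was another one. Cyp7b1 led at 77.2 ± 35.2 CPM per kilobase, followed by Nr1h4 at 27.8 ± 7.25, Slc10a2 at 20.2 ± 5.91 and Cyp27a1 at 7.88 ± 1.13 (SD, n = 3). Baat, Slc10a1, Nr0b2 and Slc27a5 each averaged under 1 CPM per kilobase. The ranges of Cyp7b1 and Nr1h4 did not overlap, nor did those of Slc10a2 and Cyp27a1, nor those of Cyp27a1 and Baat, while other neighbours overlapped. The tables were scaled separately here, so the order holds within a tissue.

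**Figure D1:**
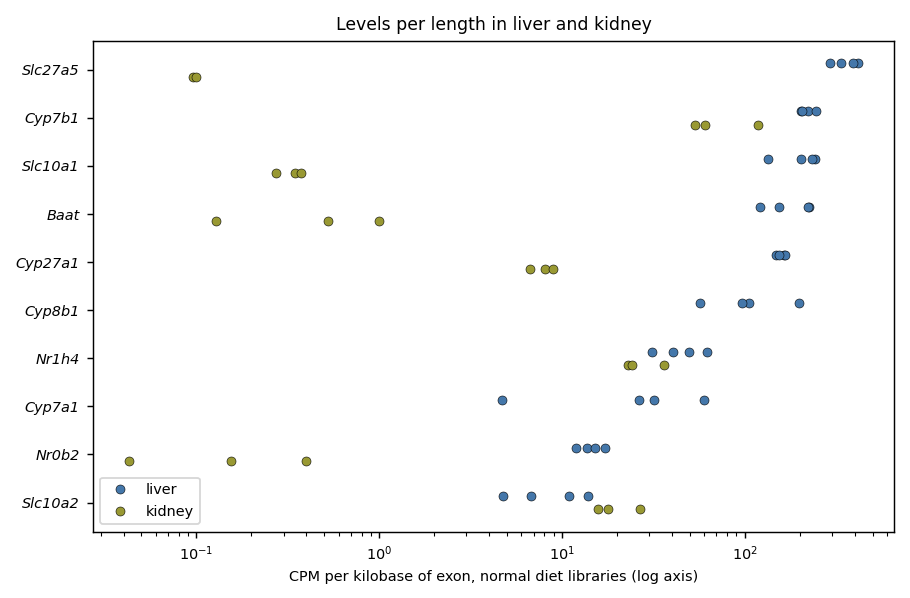
CPM per kilobase of exon (log axis) in each normal diet library, with 4 liver and 3 kidney points a gene and genes in the order of the liver mean. Slc27a5 was at 0 in kidney library 1, which a log axis cannot show, and Cyp7a1 and Cyp8b1 have no kidney count row; for Slc10a2 all 3 kidney points lie to the right of its 4 liver points on these separately scaled values.

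The tissue difference on the normal diet was taken from a joint model of the 14 libraries, for genes with a row in both tables (edgeR's quasi-likelihood test, Benjamini-Hochberg adjustment over 16633 genes, called under 0.05). Of the 8 members with both rows, Cyp7b1 is given with no test, since its normal diet liver values entered its choice. Of the other 7, 6 were higher in liver and 1 did not pass, where 65.1% of all genes tested were called, 32.9% higher in liver and 32.2% lower, and 68.0% had an unadjusted p under 0.05. The libraries of the same 6 did not overlap between the tissues, beside 58.8% of all genes. Tissue and count table cannot be told apart in this comparison. In this bulk RNA, fewer cells of a type and less RNA per cell cannot be told apart either.

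The conjugating enzymes and the hepatocyte carrier showed the widest gaps. Slc27a5 was at 716 to 1015 CPM in liver and at 0, 4 and 5 counts in the kidney libraries, a difference of 12.96 (SE 0.59) on the log2 scale with an adjusted p of 1.37e-10. Slc10a1 differed by 9.80 (SE 0.40; edgeR adjusted p = 5.96e-11), with kidney values of 0.600, 0.761 and 0.823 CPM. Baat differed by 8.93 (SE 0.58; edgeR adjusted p = 4.10e-09), with kidney values of 0.250, 1.93 and 1.02 CPM. The highest of these Baat values came from normal diet kidney library 2, which also held the most Alb, the albumin transcript of hepatocytes, at 35.7 CPM against 2.70 and 10.9 in libraries 1 and 3. The 4 hepatocyte markers, Alb among them, summed to 94.4, 83.0 and 55.9 CPM in normal diet kidney libraries 1, 2 and 3. Library 2 was thus not the highest in that sum. The part of hepatocyte transcripts in the Baat value was not tested.

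Among the synthesis enzymes, Cyp27a1 was higher in liver by 4.87 (SE 0.23) on the log2 scale (edgeR adjusted p = 1.72e-10). In the joint scaling Cyp7b1 was at 566 ± 74.6 CPM in liver and 136 ± 61.8 in kidney on the normal diet, a log2 difference of 2.05 (SE 0.31). On high salt Cyp7b1 was at 186 ± 22.6 CPM in liver and 178 ± 59.7 in kidney, where the libraries of the tissues overlapped (SD, n = 4 and 3 on each diet). The receptor Nr1h4 differed by 1.28 (SE 0.26; edgeR adjusted p = 0.000519), the smallest gap that passed. Nr0b2, the repressor, differed by 6.70 (SE 0.81; edgeR adjusted p = 3.71e-06), from 13.5 to 19.5 CPM in liver to 9, 3 and 1 counts in kidney. Slc10a2 was 0.60 (SE 0.37) lower in liver and did not pass (edgeR adjusted p = 0.169). Its ranges overlapped in that fit, at 22.2 to 70.5 CPM in liver and 53.2 to 90.7 in kidney. It did pass with upper quartile scaling (-0.91, edgeR adjusted p = 0.0396), which moved the median of all genes from 0.024 to -0.28, and without normal diet liver library 1 (-0.90, edgeR adjusted p = 0.0464). Relative to the median of all genes its difference was -0.63 with upper quartile scaling and -0.62 with the main scaling.

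Slc10a2 is known in bile duct epithelium, so the bile duct markers were set beside it. In the liver libraries the 5 cholangiocyte markers together summed to 2.56 to 4.91 CPM, with Krt19 at 0.266 to 0.848 and Cftr at 0 to 0.283 CPM, while Slc10a2 stood at 16.5 to 57.4 CPM. These values are not divided by length. Whether bile duct cells carry the Slc10a2 transcript was not tested.

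**Figure D2:**
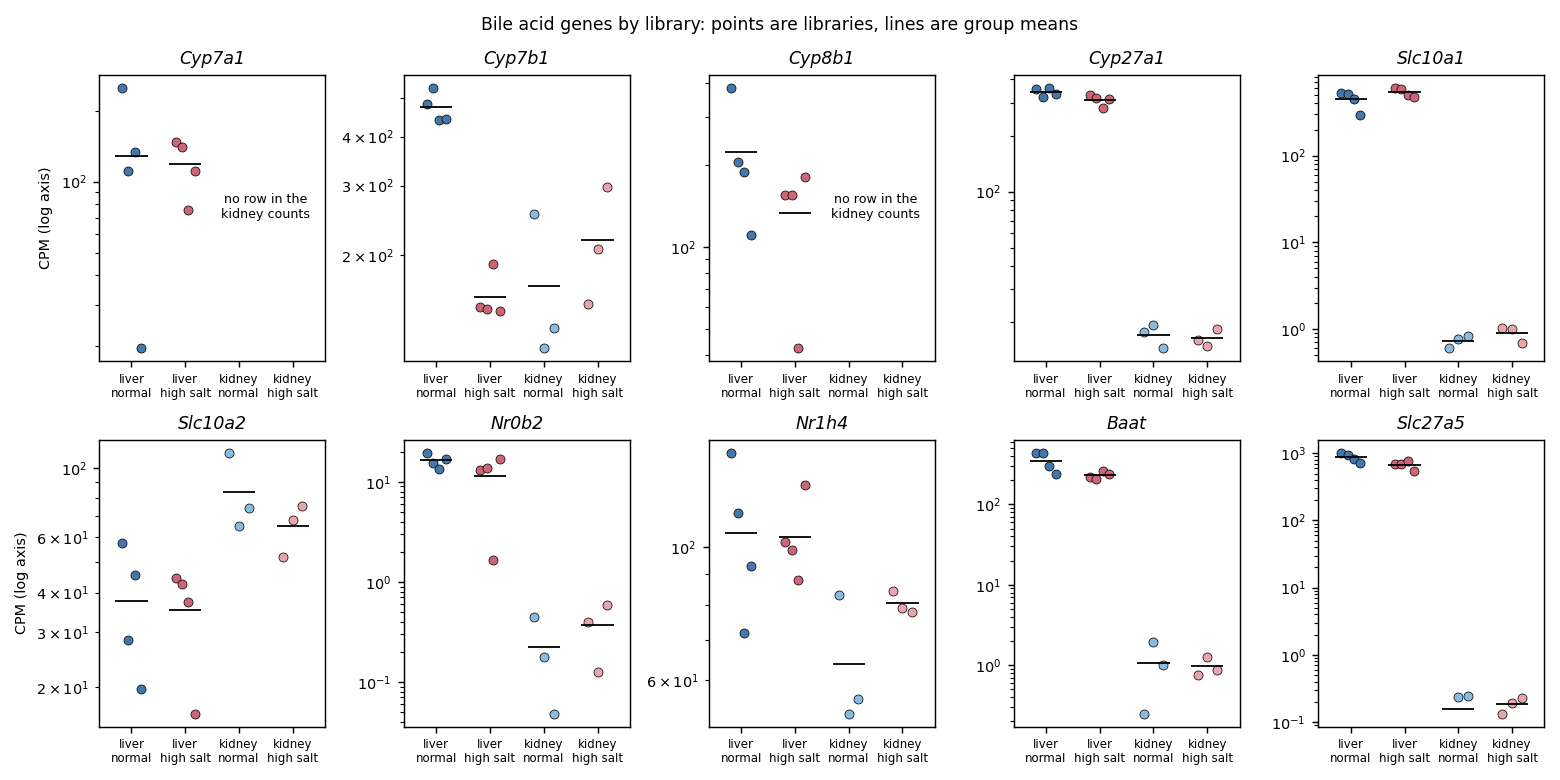
CPM (log axis) of each of the 10 genes in every library, 1 panel a gene, with points for libraries and a line for each group mean. Cyp7b1 is the 1 gene whose liver points separate by diet, and Slc27a5 was at 0 in normal diet kidney library 1, which is not drawn.

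The diet comparison in liver asked which of these genes differ between high salt and the normal diet. Coordinates are those of the deposited liver table (mm10, equal to GRCm38). Cyp7b1 (chr3:18071950-18243338, minus strand), chosen for this contrast, stood at 483, 533, 441 and 444 CPM in normal diet libraries 1 to 4 and at 148, 146, 190 and 144 CPM in HS5 to HS8. Every high salt library lay below every normal diet library. The means were 475 ± 42.7 and 157 ± 22.0 CPM (SD, n = 4 each), a difference of -1.60 on the log2 scale (SE 0.17). Over 19 alternative settings this difference ranged from -1.72 to -1.50. Of all genes tested, 1.00% were called at an adjusted p under 0.05, 0.595% higher and 0.410% lower, and in 6.05% of genes every high salt library lay below every normal diet one; nothing is read from these shares for Cyp7b1.

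None of the other 9 genes passed in liver (edgeR's quasi-likelihood test, adjusted p from 0.172 to 0.963), and the groups of each overlapped, beside 12.5% of all genes tested without overlap. At an unadjusted p under 0.05 there was 1, Baat, against 21.2% of all genes. DESeq2 called 0 of the 9 as well. Of the 9 differences, 8 were negative and 1 positive, with a median of -0.14, where the median of all genes was -0.023. The genes are taken in turn by their step in the pathway.

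Cyp7a1 (chr4:6265612-6275633, minus strand), the rate-limiting enzyme of the classic route, was at 251, 110.5, 133.6 and 19.6 CPM on the normal diet and at 147, 141, 76.0 and 111 CPM on high salt. The normal diet libraries spread 12.8-fold and enclosed all the high salt values. The means were 129 ± 95.3 and 119 ± 32.6 CPM (SD, n = 4 each), and the difference of -0.12 (SE 0.57) did not pass (edgeR adjusted p = 0.926). Its sign turned positive, at 0.63, without normal diet libraries 1 and 2, and at 0.31 on the authors' normalized values. The lowest value came from library 4, the one with the high acute phase genes.

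Cyp8b1 (chr9:121914356-121916305, minus strand), the sterol hydroxylase on the way to cholic acid, was at 385, 206, 189 and 110.3 CPM on the normal diet and at 155, 156, 42.5 and 181 CPM on high salt. HS7 alone lay below the whole normal diet range. The difference was -0.74 (SE 0.46) and did not pass (edgeR adjusted p = 0.380). Without HS7 it was -0.45 (edgeR adjusted p = 0.489).

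Cyp27a1 (chr1:74713574-74737892, plus strand), which starts the alternative route, had the narrowest spread of the 10 genes in liver. It was at 355, 322, 362 and 334 CPM on the normal diet and at 331, 318, 281 and 315 CPM on high salt, and the groups overlapped. The difference was -0.14 (SE 0.15; edgeR adjusted p = 0.595). It ranged from -0.17 to -0.11 over 19 alternatives, the same sign in each.

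The pair of conjugating enzymes stood lower on average, within the spread of the libraries. Baat (chr4:49489422-49506557, minus strand) was at 438, 431, 298 and 236 CPM on the normal diet and at 216, 207, 257 and 240 CPM on high salt. Normal diet library 4 lay inside the high salt range and the other 3 above it. The difference of -0.61 (SE 0.22) had an unadjusted p of 0.0209 and an edgeR adjusted p of 0.172, and over 19 alternatives it did not pass (-0.77 to -0.21, adjusted p from 0.0583 to 0.608). The smallest value, -0.21, was that without normal diet libraries 1 and 2. Slc27a5 (chr7:12988346-12998192, minus strand) was at 1015, 952, 821 and 716 CPM on the normal diet and at 700, 688, 767 and 553 CPM on high salt. Only HS7 overlapped the normal diet range. The difference was -0.37 (SE 0.19; edgeR adjusted p = 0.297).

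Neither carrier passed the test. Slc10a1 (chr12:80953183-80968705, minus strand) was at 530, 513, 445 and 295 CPM on the normal diet and at 610, 592, 496 and 473 CPM on high salt, a difference of 0.28 (SE 0.22; edgeR adjusted p = 0.467). It was the 1 gene of the 9 with a positive value. Slc10a2 (chr8:5083219-5105351, minus strand) was at 57.4, 28.2, 45.6 and 19.7 CPM on the normal diet and at 44.4, 42.6, 37.4 and 16.5 CPM on high salt, with both groups over the same range (-0.099, SE 0.38; edgeR adjusted p = 0.904).

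The regulators overlapped between diets too. Nr1h4 (chr10:89454234-89533585, minus strand) was at 143, 113.8, 72.0 and 93.0 CPM on the normal diet and at 101.8, 98.7, 88.2 and 127 CPM on high salt, and the difference of -0.023 (SE 0.22) was the smallest of the 10 (edgeR adjusted p = 0.963). Nr0b2 (chr4:133553376-133556536, plus strand) was at 19.5, 15.5, 13.5 and 17.1 CPM on the normal diet and at 13.0, 13.7, 1.64 and 17.0 CPM on high salt. HS5, HS6 and HS8 lay within or just under the normal diet range, and HS7 lay far below it. Its difference was -0.53 (SE 0.52; edgeR adjusted p = 0.570), and without HS7 it was -0.18 (edgeR adjusted p = 0.577).

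Individual libraries were low in several of these genes at once. Normal diet library 4 had the lowest normal diet value of Cyp7a1, Cyp8b1, Slc10a1, Slc10a2, Baat and Slc27a5, though not of Cyp7b1, Nr0b2, Nr1h4 or Cyp27a1. Its acute phase level of 63820 CPM and its summed level of 4 neutrophil markers, 53.8 CPM against at most 1.41 CPM in the other liver libraries, stand beside these values. HS7 had the lowest high salt value of Cyp7a1, Cyp8b1, Cyp27a1, Nr1h4 and Nr0b2 and the highest of Cyp7b1, Baat and Slc27a5. The part of these library features in the differences was not tested.

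**Figure D3:**
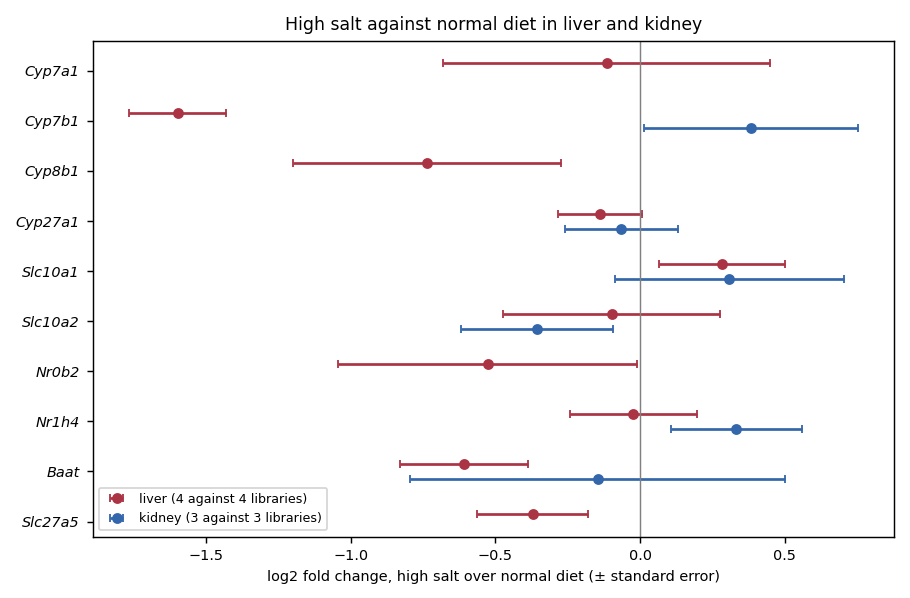
Difference between high salt and normal diet on the log2 scale, with bars of 1 standard error, from the separate fits of liver (4 against 4 libraries) and kidney (3 against 3). Cyp7b1 lies at -1.60 in liver and 0.38 in kidney, the other points lie between -0.74 and 0.33, and genes without a tested kidney row have a liver point only.

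Bile acid synthesis is known to lie mostly in hepatocytes near the central vein, so markers of that zone are given beside Cyp7b1. The marker and clock lists were chosen with earlier results of these data known, so the counts called can reflect that choice. Of 7 pericentral markers 3 fell on high salt: Rhbg, an ammonia channel, by 2.30 on the log2 scale, Oat, ornithine aminotransferase, by 1.41, and Cyp1a2 by 1.07 (edgeR adjusted p = 0.00517, 0.0451 and 0.0450), where 0.410% of all genes were called lower. Rhbg stayed called under all 19 alternatives (adjusted p up to 0.0446). Oat and Cyp1a2 kept their sign but were not called with HS5 and HS6 summed (adjusted p = 0.187 and 0.201), without normal diet libraries 1 and 2 (0.0991 and 0.113), with no filter on low counts, on the normalized values, or without normal diet library 1 or 2 or any 1 of the high salt libraries. The 7 markers summed to 8494 to 11986 CPM on the normal diet and to 5120 to 6619 CPM on high salt. Glul, the glutamine synthetase of the innermost cells, was at 556 ± 131 and 556 ± 86.9 CPM (SD, n = 4 each). Cyp2e1 and Lgr5 gave -0.87 and -0.20 and did not pass (edgeR adjusted p = 0.114 and 0.80). DESeq2 called 4 of the 7 lower, Cyp2e1 among them (adjusted p = 0.00192), where it called 1084 of 19567 genes in either direction. Axin2 went the other way, at 0.65, and did not pass either (edgeR adjusted p = 0.335). Among the 7 pericentral markers, 6 differences were negative, that of Glul at -0.0010 included, and 1 was positive. The median of the 7 was -0.87, where that of all genes was -0.023. Of 5 periportal markers none passed. Of 15 clock genes tested 2 rose, Per3 by 0.88 and Hlf by 0.88 (edgeR adjusted p = 0.0440 and 0.0364), where 0.595% of all genes were called higher. Neither was called with HS5 and HS6 summed (0.161 and 0.160), without normal diet library 1 or 2 or both, or without HS5, HS6 or HS8, and Per3 was not without HS7 either. Per2 gave 0.85 and did not pass (edgeR adjusted p = 0.13). It was called higher with DESeq2 (adjusted p = 0.0411) and without normal diet library 3 (edgeR, 0.0204). Of the 15, 11 had positive and 4 negative differences. Nfil3 had the widest, -1.36, and did not pass (edgeR adjusted p = 0.0597). Nfil3 was called lower with DESeq2 (adjusted p = 0.000462), with all 14 libraries in 1 fit (edgeR, 0.0302) and without normal diet library 1, 3 or 4. It was also called without normal diet libraries 1 and 2, but not with HS5 and HS6 summed (edgeR, 0.207). The clock genes summed to 449 to 505 CPM on the normal diet and 542 to 636 CPM on high salt. The part of zonation or of collection time in the Cyp7b1 level was not tested.

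In kidney the same comparison was independent of how Cyp7b1 was chosen. Cyp7b1 was at 255, 116 and 131 CPM on the normal diet and at 150.5, 207 and 297 CPM on high salt. The groups overlapped, and the difference was 0.38 (SE 0.37; edgeR adjusted p = 0.9996). Normal diet library 1 lay above high salt libraries 1 and 2. Leaving that library out gave 0.82 (edgeR adjusted p = 0.252). Leaving out normal diet library 2 or 3 gave 0.18 or 0.23, and leaving out high salt library 1 or 3 gave 0.59 or 0.094.

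The other kidney rows did not pass either. Nr1h4 was at 83.2, 52.9 and 55.9 CPM on the normal diet and 84.5, 79.3 and 77.9 CPM on high salt, with normal diet library 1 inside the high salt range (0.33, SE 0.23). Slc10a2, the carrier of the proximal tubule, was at 112, 65.3 and 74.2 CPM and at 52.1, 68.1 and 75.8 CPM (-0.36, SE 0.26). Cyp27a1 was at 17.6, 19.3 and 14.5 CPM and at 15.9, 14.9 and 18.3 CPM (-0.065, SE 0.20). Slc10a1 and Baat, near 1 CPM, gave 0.31 (SE 0.40) and -0.15 (SE 0.65). Each of these 5 had an edgeR adjusted p of 0.9996. The diets overlapped in all 8 members with a kidney row, beside 6.92% of genes without overlap.

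In kidney 0 of 15847 genes were called, 0% in either direction, so a count of 0 of 6 members is the background. At an unadjusted p under 0.05 there were 318 genes (2.01%) and 0 members, and DESeq2 called 13 genes and 0 members. Nr0b2 (9, 3 and 1 counts against 9, 2 and 13) and Slc27a5 (0, 4 and 5 counts against 3, 3 and 5) were under the filter on low counts and were not tested by diet. The authors' normalized kidney values come from another quantification that lists Cyp7a1 at 0.986, 9.14 and 0.940 on the normal diet and at 0 in the 3 high salt libraries. There Cyp8b1 is listed at 1.97, 2.28 and 1.88 and at 0, 0 and 1.75. The highest Cyp7a1 value is from normal diet kidney library 2, the normal diet one with the most Alb, though not with the highest summed hepatocyte markers.

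Whether the diet difference itself differed between the tissues was tested with an interaction term in all 14 libraries. For Cyp7b1 the liver difference minus the kidney difference was -1.98 on the log2 scale (SE 0.41), given without a test because the liver contrast enters it, and the value ranged from -2.42 to -1.70 over 22 alternatives. None of the 7 other members with both rows passed (edgeR's quasi-likelihood test, adjusted p from 0.705 to 0.989), where 0 of 16633 genes were called (0%) and 1681 (10.1%) had an unadjusted p under 0.05, none of them among the 7. DESeq2 called 142 genes and 0 of the 7. The widest of the 7 was Nr0b2 at -1.30 (SE 1.12), which rests on few kidney counts.

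The other genes of the pathway were taken from lists by role. These lists too were chosen with earlier results of these data known, so the counts called can reflect that choice. Of 13 further synthesis enzymes 12 were tested in liver, and 1 rose and 0 fell. Of all genes 0.595% were called higher and 0.410% lower. The gene that rose was Cyp46a1, cholesterol 24-hydroxylase, best known from neurons, where it removes cholesterol. It was at 0.404, 0.300, 1.10 and 0.649 CPM on the normal diet and at 3.00, 3.96, 5.47 and 5.28 CPM on high salt, a difference of 2.86 (SE 0.40; edgeR adjusted p = 0.0176). Every high salt library lay above every normal diet library, as in 6.44% of all genes. The call was lost without normal diet library 1 (edgeR adjusted p = 0.0510), HS6 (0.0707) or HS8 (0.0625), with HS5 and HS6 summed (0.0609) and without normal diet libraries 1 and 2 (0.0569).

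Of the remaining 11 enzymes tested 9 had negative values and none passed. Cyp2c70, which makes muricholic acids in mice, gave -1.07 (SE 0.28) from 551 ± 192 to 262 ± 61.0 CPM (SD, n = 4 each; edgeR adjusted p = 0.0981). It passed with DESeq2 (adjusted p = 0.00965) and without normal diet library 4 (edgeR adjusted p = 0.0365). Hsd3b7, the dehydrogenase that acts after Cyp7a1, was at 620, 617, 280 and 363 CPM on the normal diet and 242, 253, 239 and 320 CPM on high salt. Its higher pair came from the libraries with the low mitochondrial share, and the groups overlapped (-0.83, SE 0.27; edgeR adjusted p = 0.144). It passed without normal diet library 3 (-1.03, edgeR adjusted p = 0.0457), and without libraries 1 and 2 it was -0.29 (edgeR adjusted p = 0.522).

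Of 16 further transport genes 15 were tested in liver and none passed. Abcb11, the bile salt export pump, was at 321, 322, 436 and 298 CPM on the normal diet and 371, 346, 348 and 349 CPM on high salt (0.038, SE 0.17; edgeR adjusted p = 0.919). Abcc3 and Abcc2, which export conjugates to blood and to bile, gave 0.35 (SE 0.15) and 0.36 (SE 0.17) and did not pass (edgeR adjusted p = 0.223 and 0.258). The median of the 15 was 0.11.

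Of 17 further control genes 14 were tested and none passed. Of the 14, 11 had positive and 3 negative differences, with a median of 0.28 where that of all genes was -0.023. Nr1h3, which encodes the oxysterol receptor LXR alpha, gave -0.69 (SE 0.23) from 108 ± 33.8 to 67.1 ± 3.41 CPM (SD, n = 4 each; edgeR adjusted p = 0.143). Its normal diet values of 134 and 136 CPM in libraries 1 and 2, those with the low mitochondrial share, stood above 65.4 and 97.1 CPM in libraries 3 and 4, and the groups overlapped. Nr1h3 passed without normal diet library 3 (-0.88, edgeR adjusted p = 0.0306), and without libraries 1 and 2 it was -0.27 (edgeR adjusted p = 0.504). Klb and Fgfr4, the receptor pair through which the gut hormone FGF15 lowers Cyp7a1, gave 0.49 (SE 0.19) and 0.31 (SE 0.15), with adjusted p of 0.186 and 0.283 by edgeR's test. Nr5a2 and Hnf4a, whose motifs stand in the printed Nr0b2 and Cyp8b1 promoters, gave -0.14 (SE 0.19) and 0.033 (SE 0.22), with adjusted p of 0.706 and 0.946 by edgeR's test.

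Of 5 detoxification genes 4 were tested in liver and 1 fell, where 0.410% of all genes were called lower. Cyp2b10, the cytochrome P450 that the receptor CAR induces, was at 8.42, 22.0, 14.8 and 9.90 CPM on the normal diet and at 2.98, 2.90, 3.49 and 1.20 CPM on high salt. Every high salt library lay below every normal diet library, as in 6.05% of all genes. Cyp2b10 fell by 2.38 on the log2 scale (SE 0.39, edgeR adjusted p = 0.0321). The call was lost without normal diet library 2 (edgeR adjusted p = 0.0658), HS5 (0.132), HS6 (0.139) or HS8 (0.0662), with HS5 and HS6 summed (0.138) and without normal diet libraries 1 and 2 (0.0700). Cyp3a11, which oxidises bile acids, was at 7796, 11691, 7307 and 378 CPM on the normal diet and 2295 to 3978 CPM on high salt. Library 4 lay far below all others, and the difference did not pass (-1.22, SE 0.72; edgeR adjusted p = 0.352).

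**Figure D4:**
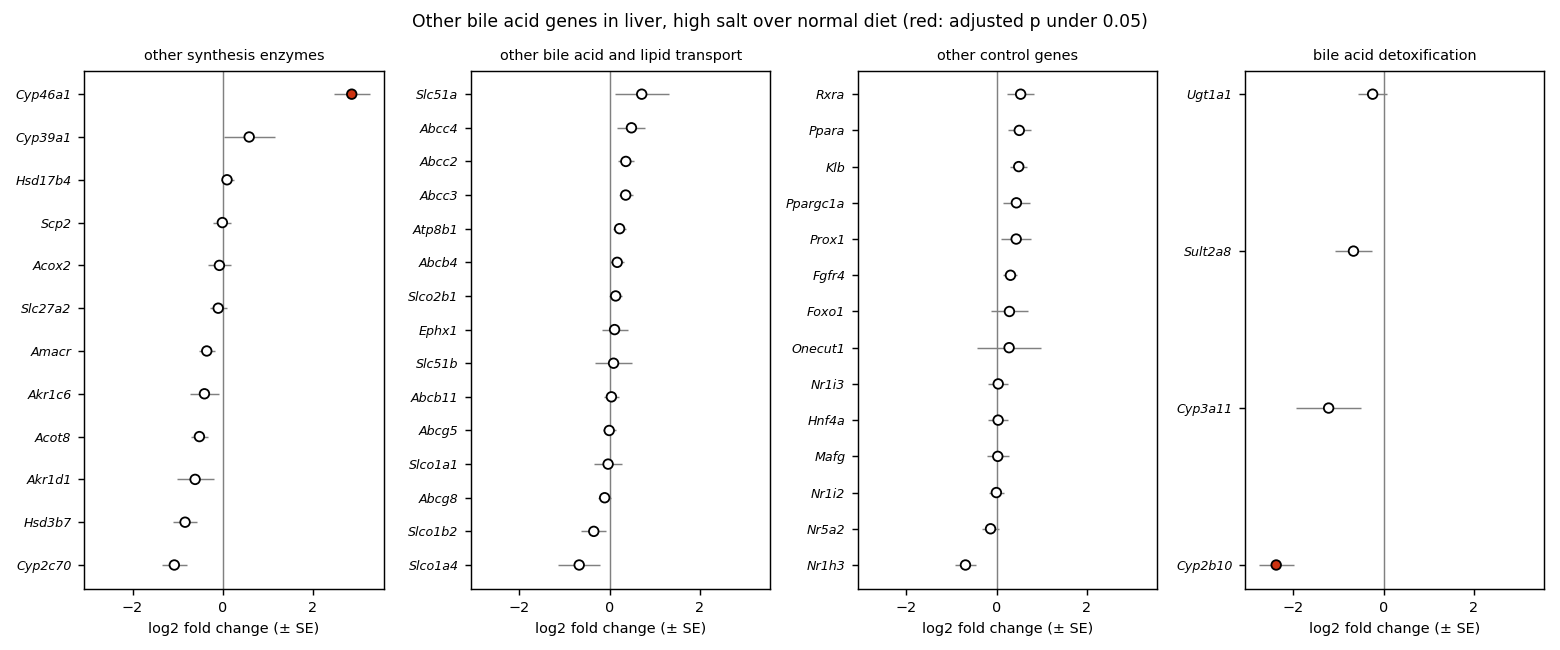
High salt against normal diet in liver on the log2 scale, with bars of 1 standard error, for the tested genes of the 4 further lists (12, 15, 14 and 4 genes). The 2 filled points, Cyp46a1 at 2.86 and Cyp2b10 at -2.38, are those with an adjusted p under 0.05.

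In kidney none of these further genes passed. The smallest unadjusted p-values were those of Cyp3a11, Abcc3 and Slco1a1. Cyp3a11 was at 0.200, 16.1 and 2.90 CPM on the normal diet and at 0.759, 0.315 and 0.50 CPM on high salt (-3.55, SE 1.22). Its highest value was in normal diet library 2, the normal diet one with the most Alb, though not with the highest summed hepatocyte markers. Abcc3 gave 1.18 (SE 0.52) at levels of 0.250 to 1.32 CPM. Slco1a1, an organic anion carrier of the tubule, was at 526, 545 and 544 CPM and at 758, 1143 and 517 CPM (0.58, SE 0.30). Cyp46a1 showed 0.379 ± 0.0492 and 0.378 ± 0.176 CPM in kidney (SD, n = 3 each).

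The genes whose liver pattern lay nearest to 3 of the synthesis enzymes were found by the root mean square distance of centred log2 CPM over the 8 liver libraries, among 12184 genes with a mean of at least 50 counts. The nearest to Cyp7b1 were Asic5 at a distance of 0.239, C9 at 0.274 and Mup7 at 0.278, where the own root mean square of Cyp7b1 was 0.813. Asic5 encodes an acid-sensing ion channel that bile acids can open, C9 a complement protein and Mup7 a major urinary protein. The nearest to Cyp7a1 were Arrdc3 at 0.34, 9130409I23Rik at 0.464 and H2-T10 at 0.474, against 1.0 for Cyp7a1 itself. The nearest to Cyp8b1 were Tmem254c at 0.43, Chst13 at 0.436 and BC049987 at 0.463, against 0.844 for Cyp8b1 itself. Neither Cyp7b1, Cyp7a1 nor Cyp8b1 had another of the 10 bile acid genes among its nearest 3. With 12184 genes compared, 3 places would rarely hold a member in any case, so nothing is read from this. In Cyp7b1's 3 neighbours, as in Cyp7b1, HS7 was the highest high salt library. Nearness was measured over these same libraries with the diet difference left in. A shared liver fall and a shared rank of HS7 thus follow largely from the choice and are no separate result.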

How the data were processed

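RNA from liver and kidney of transgenic male mice was made into libraries with a SMARTER mRNA-Seq kit, per the labels' protocols. The submitters' processing notes name STAR 2.5.3a, Partek 7.0, DESeq2 and mm10, without roles. The authors deposited expected counts per gene in a table for each tissue, and normalized values, a signal per gene; the annotation release and the method of normalization are not given in the sources used here. Kidney normalized values come from another quantification than the kidney counts. High salt liver columns show their diet but match no title. The number of unused per-sample columns was 0. The members and lists were chosen with earlier results of these data known.

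Expected counts were rounded and tested with edgeR 4.0.16 in R 4.3.3 (quasi-likelihood, TMM, filterByExpr), each tissue apart; the interaction and tissue comparisons used 1 fit of 14 libraries. The tissue comparison of Cyp7b1, planned as a test, is given without one. CPM use TMM library sizes within a tissue. Replicates varied with a common biological coefficient of variation of 0.314 (liver) and 0.3 (kidney). No molecular identifiers are named in the sources used here, so counts are not taken as molecules. Each fit was tested on simulated counts, in which 200 genes had a log2 change of 2. Liver recovered 185 (14889 genes), kidney 189 (15461), the interaction 126 (16351) and the tissue comparison 180 (16362). False calls numbered 4, 11, 5 and 9 in that order. The diet differences of the members tested were all smaller than 2, and recovery at such sizes was not simulated.

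Named genes were the 10 members, further bile acid genes past the threshold or with the smallest unadjusted p (5 in liver, 3 in kidney), and the 3 nearest liver patterns of Cyp7b1, Cyp7a1 and Cyp8b1. Abcb11, Abcc2, Klb, Fgfr4, Nr5a2, Hnf4a and liver Abcc3 and Cyp3a11 were added for their role after their values were seen. The alternatives tried were DESeq2 1.42.0, RLE scaling, upper quartile scaling, other filters, removal of mitochondrial genes, limma 3.58.1 on the normalized values (pseudocounts 1 and 0.1), 1 fit of all libraries, HS5 and HS6 summed, normal diet libraries 1 and 2 left out, a replicate block in kidney and each library left out. Lengths come from GENCODE M21. Strand use in counting is not given in the sources used here. A further control gene is not reported here. The human transgene was not analysed here.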

Additional observations from a re-analysis of the deposited data

Results flagged for a closer look

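Within each group of 4 liver libraries, the 10 members, the 5 further bile acid genes named by rule and the 9 genes nearest in pattern were checked for a single library far from the others, by the gap to its neighbour over the whole range. Of 48 groups 6 were marked. A rate of 1 in 20 would give 2.4 in independent groups, but these groups are not independent. The 9 nearest genes were picked for their likeness to Cyp7b1, Cyp7a1 or Cyp8b1 over the same libraries, so their marks can repeat. HS5 and HS6 were also close to each other. No excess over chance is therefore read from the 6 marks. Cyp7b1 in HS7 was at 190 CPM, above the other high salt libraries at 144 to 148 CPM but under all normal diet libraries. Mup7, a major urinary protein gene, was at 14500 CPM in normal diet library 4, below the others at 23020 to 23800, and at 12000 CPM in HS7, above the others at 5551 to 6266. Arrdc3, an arrestin family gene, was at 21.5 CPM in HS7, below the others at 49.7 to 54.9. 9130409I23Rik was at 4.04 CPM in normal diet library 4, below 18.2 to 20.4 in the others. Tmem254c was at 50.2 CPM in normal diet library 1, above 17.1 to 21.6 in the others. The 3 marks in HS7 and the 2 in normal diet library 4 fall in the library with the most tubule marker reads (45.5 CPM) and in the one with the most acute phase transcripts (63820 CPM). The part of either in these values was not tested.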

How the results depend on the processing

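The count of members called was 0 in liver, kidney and interaction under every alternative run, and, with Cyp7b1 left out of that count, 6 between tissues. The latter was 7 with upper quartile scaling and without normal diet liver library 1, where Slc10a2 also passed, and 3 with at least 10 counts in every library, where Baat, Nr0b2 and Slc27a5 were not tested. The count of all genes called was less stable. In liver it was 152, but 1084 with DESeq2, 260 with all 14 libraries in 1 fit, 12 with HS5 and HS6 summed, 52 without normal diet libraries 1 and 2, and 12 to 765 with 1 library left out. It was 0 in kidney but 13 with DESeq2, and 0 in the interaction but 142 with DESeq2, 2 with at least 10 counts in every library, 1 without normal diet libraries 1 and 2, and 0 to 7 with 1 library left out. The cause was not tested. Small differences turned sign. Without normal diet libraries 1 and 2 the liver values were 0.63 for Cyp7a1, 0.11 for Slc10a2 and 0.33 for Nr1h4, and the interaction values 0.31 for Slc10a1 and 0.067 for Nr1h4. On the normalized values Cyp7a1 was 0.31 with a pseudocount of 1 and 0.31 with 0.1, and kidney Baat 0.15 and 0.19. Liver Nr1h4 was 0.016 with upper quartile scaling and 0.0050 with at least 10 counts in every library. With 1 library left out the liver values ran from -0.49 to 0.42 for Cyp7a1, -0.32 to 0.17 for Slc10a2 and -0.18 to 0.15 for Nr1h4. In kidney they ran from -0.17 to 0.028 for Cyp27a1 and -0.62 to 0.58 for Baat. In the interaction they ran from -0.16 to 0.024 for Cyp27a1, -0.21 to 0.10 for Slc10a1, -1.19 to 0.0066 for Baat and -1.11 to 0.0050 for Slc27a5. None of these passed the test in either sign. Of 768 alternative values for the log2 differences, 716 kept their sign and, where tested, their side of the threshold. For Cyp7b1 where untested, those counted also shifted by less than its SD within groups. A further 2 Cyp7b1 values kept their sign but shifted by more. Whether the kidney replicate numbers pair the samples could not be told. Same-numbered libraries correlated at 0.486, 0.464 and -0.129 in their deviations from the group means, and unlike-numbered ones at -0.555 to 0.474. With 3 libraries a group the deviations sum to 0, which constrains these correlations. With the replicate block kidney calls stayed at 0 genes and 0 members, and Baat was 0.099. No paired analysis was possible in liver because the high salt columns carry no number of the titles. In kidney Slc10a1, Nr0b2, Baat and Slc27a5 rest on 0 to 33 counts a library, which limits their differences.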
